A study of Neurospora crassa with 6 samples.

Results

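The 8 genes described here encode the RNA silencing machinery of the filamentous fungus Neurospora crassa. They were chosen by locus tag from a table of 9730 genes, and all 8 were present under the symbols qde-1, qde-2, qde-3, qip, dcl-1, dcl-2, sad-1 and sms-2. Their transcripts were measured by sequencing of polyadenylated RNA from 6 cultures, to ask how the transcriptome of a strain without an intact clock gene period-2 (prd-2) differs from that of its control. The prd-2 mutant is strain 1810, in which the resistance marker barR disrupts prd-2 (prd-2::barR), and the control is strain 328-4, labelled wt. Both are MAT A and carry ras-1bd, an allele of ras-1 that makes the daily banding of asexual spores easy to see, so neither is a wild type for ras-1. Each strain was grown as 3 shaken liquid cultures in constant light, at 25 °C and for 48 h, in Bird medium (a defined medium) holding 1.8% glucose. Each genotype was 1 strain, so the errors reflect how cultures of that strain vary, and other differences between the strains cannot be told apart from the loss of prd-2.

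Neurospora has a pair of RNA silencing systems built from related enzymes. Quelling acts in vegetative hyphae against repeated transgenes and transposons: the helicase QDE-3 and the polymerase QDE-1 are needed to make double-stranded RNA, the Dicers cut it into small RNAs, and the Argonaute QDE-2 uses these to destroy matching transcripts after the exonuclease QIP has removed the passenger strand. Meiotic silencing acts in the sexual cycle on genes left unpaired between homologous chromosomes, with its own polymerase SAD-1 and Argonaute SMS-2, and with DCL-1 and QIP shared with quelling. Loss of one Dicer leaves quelling largely intact, because the other can replace it.

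Levels are given as FPKM, a fragment count scaled to transcript length and library size, so that levels of different genes can be set side by side. They summed to between 664476 and 688885 FPKM in mutant cultures and between 657467 and 672543 FPKM in control cultures. The fragments behind a value are not given. Among genes below 0.15 FPKM in all cultures, 1 fragment was worth 0.961 to 1.127 times as much FPKM in mutant cultures as in control replicate 1, and 1.102 to 1.107 times as much in the other controls, a measure that joins sequencing depth and the authors' scaling. The disrupted gene itself, NCU01019 (taken as prd-2 from knowledge of the study), measured 7.69, 6.29 and 6.37 FPKM in the mutant cultures and 26.5, 24.7 and 27.2 FPKM in the control cultures, so all mutant cultures were below all controls and none was at 0. Its span overlaps that of another gene, NCU01021, in the NC12 assembly.

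In these vegetative cultures the quelling genes were expressed and the genes specific to meiosis were close to 0. The Argonaute gene qde-2 stood far above the rest, with a mean of 42.2 FPKM in the mutant and 45.3 FPKM in the control, and qip came next. Then followed, in the mutant, dcl-1, qde-1, qde-3 and dcl-2, and no neighbours in that order overlapped between cultures. In the control, dcl-2 ranked above qde-3, and the ranges of dcl-1 and qde-1 and of dcl-2 and qde-3 overlapped. The gene sad-1 and, lowest, sms-2 closed the order in both strains. The 8 genes together summed to between 65.0 and 71.2 FPKM in mutant cultures and between 66.4 and 74.5 FPKM in control cultures, ranges that overlap. Of this sum qde-2 held 60.2% to 62.2% in the mutant and 63.2% to 66.3% in the control, and qip held 18.7% to 20.7% in the mutant and 13.9% to 15.2% in the control.

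**Figure D1:**
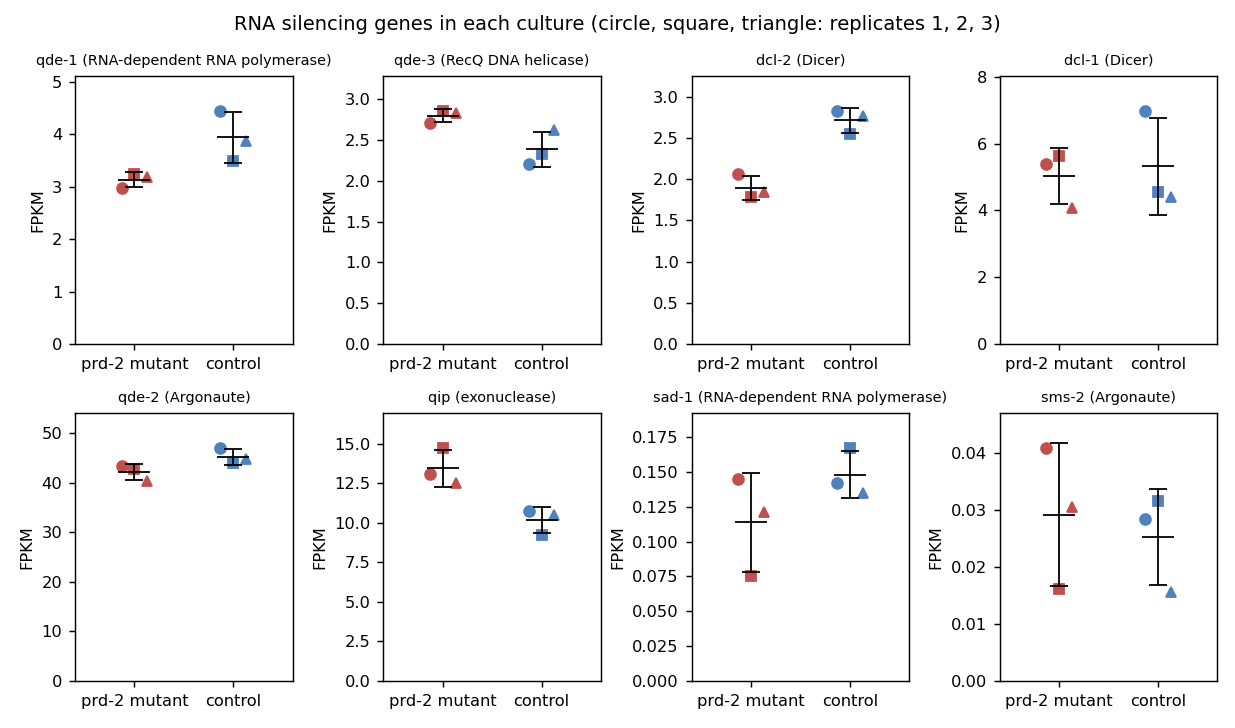
FPKM of the 8 RNA silencing genes in each culture, on linear axes that start at 0 and differ between panels. Points are cultures, the long bar is the mean and the error bar the SD (n = 3 per strain). The strains separate in qde-1, qde-3, dcl-2, qde-2 and qip, and overlap in dcl-1, sad-1 and sms-2.

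Of the 8 genes, 6 had a mean of at least 1 FPKM over all cultures and were tested between the strains, within a limma fit across 7797 genes of log2(FPKM + 1). In the mutant dcl-2 fell by 0.36 log2 units and qip rose by 0.37, and the other 4 tested genes did not pass an adjusted p of 0.05. In RNA from whole cultures, fewer cells of a type and less RNA per cell cannot be told apart. That is 1 gene higher, where 24.0% of all tested genes were called higher, and 1 gene lower, where 23.8% were called lower. With 47.8% of all tested genes called in either direction, 2 of 6 is no more than the background. Values of the strains did not overlap for 5 of the 6, against 59.8% of all tested genes. None of the 6 changed 2-fold, which 7.43% of all tested genes did with a call. The median size of the change, regardless of direction, was 0.21 log2 units for the 6 genes and 0.21 for all tested genes. Adding 1 to FPKM shrinks the change of weakly expressed genes. With 0.1 added instead, dcl-2 stood at -0.49 and qip at 0.40.

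The polymerase and the helicase that act first in quelling had estimates of opposite sign. The gene qde-1 (NCU07534), which encodes the RNA-dependent RNA polymerase, measured 2.98, 3.24 and 3.19 FPKM in the mutant cultures and 4.45, 3.50 and 3.87 FPKM in the control cultures. Every mutant value lay below every control value, and their mean was 79.7% of that of the control, but the difference of -0.25 ± 0.095 log2 units (SE; adjusted p = 0.0644 by limma) did not pass. It did pass with all cultures rescaled to 1 total (adjusted p = 0.0429) and without a variance trend (adjusted p = 0.0393), and under quantile normalization the difference was -0.025 (adjusted p = 0.837).

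The gene qde-3 (NCU08598) encodes a DNA helicase of the RecQ family, which serves in DNA repair as well as in quelling. It measured 2.71, 2.85 and 2.82 FPKM in the mutant cultures and 2.21, 2.32 and 2.62 FPKM in the control cultures. The mutant values lay above the control values, with control replicate 3 closest to them. The difference of 0.17 ± 0.090 log2 units (SE; adjusted p = 0.162) did not pass, and its 95% confidence interval ran from -0.043 to 0.38. Under quantile normalization it was 0.44 (adjusted p = 0.00922). Within a culture, the ratio of qde-1 to qde-3 was 1.10, 1.14 and 1.13 in the mutant and 2.02, 1.51 and 1.48 in the control. Its separation follows from the single genes, since qde-1 was lower and qde-3 higher in every mutant culture. Neither gene was called, and this ratio was chosen after the values were seen and was not tested.

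The Dicer genes differed in their level and in their spread. The gene dcl-2 (NCU06766), whose product makes most of the small RNAs of quelling, measured 2.06, 1.79 and 1.84 FPKM in the mutant cultures and 2.83, 2.54 and 2.77 FPKM in the control cultures. All mutant values lay below all control values, and the mutant mean of 1.90 ± 0.146 FPKM was 70.0% of the control mean of 2.71 ± 0.1496 FPKM (SD, n = 3 each). The fall was -0.36 ± 0.092 log2 units (SE; adjusted p = 0.0162 by limma), and 31.2% of all tested genes changed by more. Leaving out any single culture kept the call (-0.40 to -0.33), but only just, with limma adjusted p-values from 0.0261 to 0.049. Quantile normalization ended it, at -0.067 (adjusted p = 0.57). Weakly expressed genes were compared as well, over the 1089 tested genes with a mean of 1 to 5 FPKM. This range was chosen after the values were seen and holds qde-1, qde-3 and dcl-2. The median difference of the 1089 genes was -0.13 log2 units as deposited and 0.12 after quantile normalization. The part of this shift in the lost call of dcl-2 was not tested. On the deposited scale dcl-2 thus fell by more than the median gene of its level, and 39.8% of those genes were called.

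The gene dcl-1 (NCU08270, also listed as Sms-3) encodes the Dicer that meiotic silencing requires. It measured 5.38, 5.63 and 4.07 FPKM in the mutant cultures and 6.98, 4.55 and 4.41 FPKM in the control cultures. The strains overlapped, and control replicate 1 stood above all the others. The difference was -0.054 ± 0.174 log2 units (SE; adjusted p = 0.824), with a 95% confidence interval from -0.46 to 0.35, and it changed sign to 0.13 without control replicate 1, to 0.067 without mutant replicate 3 and to 0.14 under quantile normalization. The annotated span of dcl-1 overlaps in the NC12 assembly that of pdx-4 (NCU08269), and whether strand was used in counting is not given in the sources used here, so its value is uncertain. The gene pdx-4 measured 208, 305 and 163 FPKM in the mutant cultures and 107, 69.1 and 75.5 FPKM in the control cultures, and was called higher (1.39 ± 0.245 log2 units, SE; adjusted p = 0.00315). In each strain the culture with the highest pdx-4 was also the one with the highest dcl-1. Between the strains, the mutant mean was 268% of that of the control for pdx-4 and 94.6% for dcl-1. Control replicate 1, with the highest dcl-1 of all, had less pdx-4 than every mutant culture. The part of pdx-4 fragments in the dcl-1 value was not tested.

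The effector step showed a change in the exonuclease and none past the threshold in the Argonaute. The gene qde-2 (NCU04730) measured 43.5, 42.8 and 40.4 FPKM in the mutant cultures and 47.1, 44.0 and 44.8 FPKM in the control cultures. The groups did not overlap, though mutant replicate 1 and control replicate 2 lay close together. The mutant mean was lower, at 93.3% of that of the control, and the difference of -0.099 ± 0.054 log2 units (SE; adjusted p = 0.172) had a 95% confidence interval from -0.23 to 0.029.

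The gene qip (NCU00076) encodes the exonuclease that binds QDE-2 and clears the passenger strand of the small RNA duplex. It measured 13.1, 14.8 and 12.5 FPKM in the mutant cultures and 10.8, 9.23 and 10.5 FPKM in the control cultures. All 3 mutant values lay above all control values, and the mutant mean of 13.4 ± 1.17 FPKM was 132% of the control mean of 10.2 ± 0.824 FPKM (SD, n = 3 each). The rise was 0.37 ± 0.084 log2 units (SE; adjusted p = 0.00959 by limma), and the call was kept in all 14 other settings, with estimates from 0.31 to 0.45 and adjusted p-values from 0.0045 to 0.0357. The span of qip overlaps that of tim14 (NCU00075) in the NC12 assembly, so its value is uncertain too. The gene tim14 measured 162, 153 and 175 FPKM in the mutant cultures and 136, 153 and 165 FPKM in the control cultures, overlapping ranges with no call (0.11 log2 units; adjusted p = 0.32). Its means, 163 FPKM in the mutant and 151 FPKM in the control, were far above those of qip. The part of tim14 fragments in the qip value was not tested. The gene on the other side of qip, mus-52, had no call either (-0.071 log2 units; adjusted p = 0.438).

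**Figure D2:**
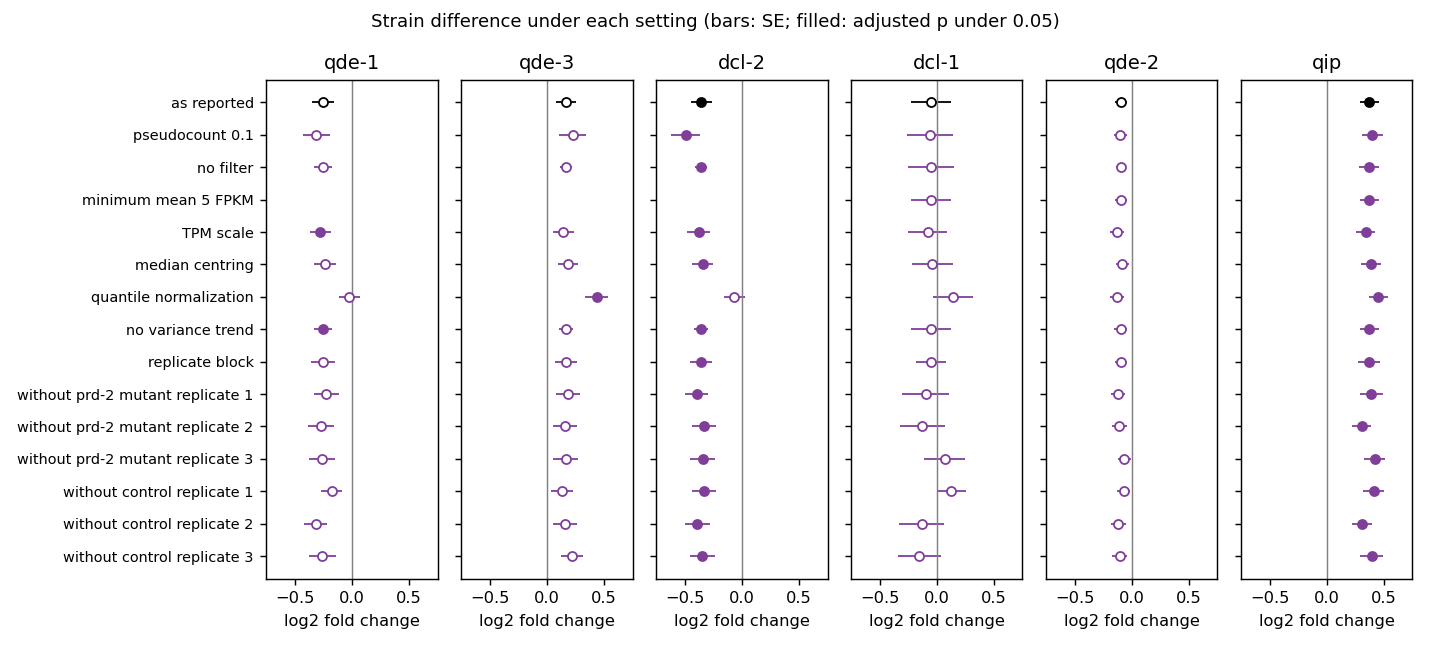
Log2 fold change of FPKM + 1, mutant over control, with its SE, for the 6 tested genes as reported (black) and under the 14 other settings. Filled points passed an adjusted p of 0.05: qip is filled in every setting, and dcl-2 in all but quantile normalization among those that give it a value.

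The ratios of qde-2 to qip and to dcl-2 moved in opposite directions, where qip was called higher, dcl-2 lower and qde-2 not called. The ratio of qde-2 to qip was 3.32, 2.90 and 3.24 in the mutant cultures and 4.37, 4.77 and 4.26 in the control cultures. The ratio of qde-2 to dcl-2 was 21.1, 24.0 and 21.9 in the mutant cultures and 16.7, 17.3 and 16.2 in the control cultures. Neither ratio overlapped between the strains. For qde-2 over qip this follows from the single genes, since qde-2 was lower and qip higher in every mutant culture. These ratios were chosen after the values were seen and are given without a test.

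**Figure D3:**
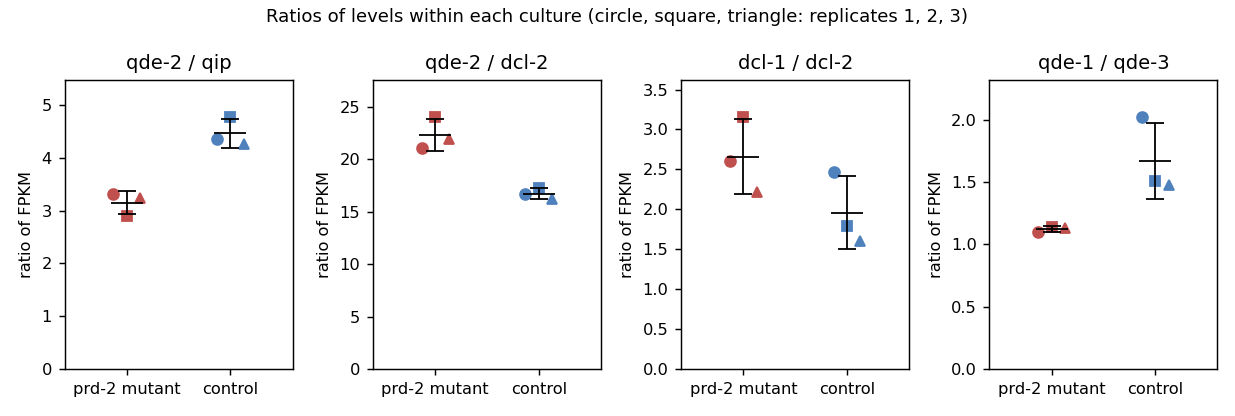
Ratios of FPKM within each culture for 4 pairs of RNA silencing genes, on linear axes from 0, with the mean and SD over 3 cultures per strain. The mutant lies below the control for qde-2 over qip and qde-1 over qde-3, above it for qde-2 over dcl-2, and overlaps it for dcl-1 over dcl-2.

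The polymerase and the Argonaute of meiotic silencing were nearly silent in both strains and were not tested. The gene sad-1 (NCU02178) measured 0.145, 0.0749 and 0.121 FPKM in the mutant cultures and 0.142, 0.168 and 0.135 FPKM in the control cultures. The strains overlapped, and qde-1 exceeded sad-1 by 20.6 to 43.3 times in mutant cultures and by 20.9 to 31.4 times in control cultures. The gene sms-2 (NCU09434) measured 0.0410, 0.0161 and 0.0306 FPKM in the mutant cultures and 0.0285, 0.0316 and 0.0157 FPKM in the control cultures. Once corrected for the worth of 1 fragment per culture, these values stood at 3.01, 1.01 and 2 times the smallest in the mutant and at 2.01, 2.02 and 1 times the smallest in the control, all within 0.021 of a whole number. Steps of that kind are what a few fragments per culture give, and no strain difference can be read from them. Of 6 other meiotic silencing genes sought by symbol, the RefSeq table named sad-2 and sad-3. The gene sad-2 ranged from 0 to 0.03 FPKM in the mutant and from 0 to 0.10 FPKM in the control, and sad-3 from 0 to 0.12 FPKM in the mutant and from 0 to 0.11 FPKM in the control, no higher than the highest value of sad-1.

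Markers of sexual development, the stage in which meiotic silencing acts, were examined in the same cultures. Of 12 such genes, 7 were tested and 4 were called, all lower in the mutant, where 23.8% of all tested genes were called lower. Under quantile normalization 2 calls were left, without those of poi-2 (adjusted p = 0.23) and asd-4 (-0.070 log2 units, adjusted p = 0.411). The summed level of the sexual development markers was 230.4 to 293.1 FPKM in mutant cultures and 722.6 to 1167 FPKM in control cultures, most of it from asd-1 and app, and pp-1, a transcription factor gene needed for female fertility, had no call. The weakest of the 4 calls, that of asd-4 (adjusted p = 0.0328), was also lost under the replicate block (adjusted p = 0.0522) and when any culture but control replicate 1 was left out (adjusted p up to 0.102). The gene app, which encodes an abundant perithecial protein and whose annotated span overlaps that of NCU04532, measured 23.2, 6.51 and 4.06 FPKM in the mutant cultures and 372, 336 and 308 FPKM in the control cultures. The pheromone gene ccg-4 was at most 0.10 FPKM in any culture. The part of these differences in the levels of sad-1, sms-2 or dcl-1 was not tested.

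The 6 genes listed as asexual spore markers summed to 4845 to 6604 FPKM in mutant cultures and 5909 to 6830 FPKM in control cultures. Most of this sum came from cmt alone, with 3433 to 3573 FPKM in the mutant and 4114 to 4864 FPKM in the control. The sum is therefore no measure of spore content. Of the 6 genes, 5 were tested, with 1 higher and 3 lower in the mutant, where 24.0% of all tested genes were called higher and 23.8% lower. The gene con-13 was near 0 in all cultures. The gene called higher, con-6, named after its values were seen, had the largest log2 fold change of the 5. It measured 129, 131 and 91.6 FPKM in the mutant cultures and 16.6, 21.9 and 20.0 FPKM in the control cultures (2.52 ± 0.156 log2 units, SE; adjusted p = 3.6e-05). Its annotated span overlaps that of NCU08768, and that of cmt overlaps NCU05560. The call of con-10 (adjusted p = 0.0355) was lost without a filter (adjusted p = 0.1) and when any culture but control replicate 3 was left out (adjusted p up to 0.116). The genes cmt and con-8 of this list fell (-0.36 and -0.92 log2 units, adjusted p = 0.00841 and 0.000127). Mutant replicate 1 stood apart in eas, the hydrophobin of the spore coat, at 2382 FPKM against 634 to 745 FPKM in the other mutant cultures and 664 to 833 FPKM in the controls. Without that culture dcl-2 and qip had log2 fold changes of -0.40 and 0.39. The part of spore content in the changes of dcl-2 and qip was not tested. Of 7 housekeeping genes of growing hyphae, 2 were called, both higher in the mutant, against 24.0% of all tested genes called higher, and one of them, tub-2, was not called under quantile normalization (adjusted p = 0.0501). The most abundant, tef-1, gpd-1 and pma-1, had no call, though gpd-1 gained one without control replicate 1 (0.41 log2 units, adjusted p = 0.0355) and pma-1 without control replicate 3 (adjusted p = 0.0468).

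To ask whether enzymes of the same class changed by different amounts, the log2 ratio of FPKM + 1 was compared between strains for 3 pairs. For qde-1 over sad-1 it averaged 1.89 ± 0.092 in the mutant and 2.10 ± 0.154 in the control (SD, n = 3 each; difference -0.21, exact permutation p = 0.2, adjusted over the 3 pairs 0.3). For qde-2 over sms-2 it averaged 5.39 ± 0.055 in the mutant and 5.50 ± 0.051 in the control (SD, n = 3 each; difference -0.10, exact permutation p = 0.1, adjusted 0.3). For dcl-1 over dcl-2 it averaged 1.05 ± 0.209 in the mutant and 0.74 ± 0.28 in the control (SD, n = 3 each; difference 0.30, exact permutation p = 0.3, adjusted 0.3). These tests are two-sided and cannot give a p below 0.1 with 3 cultures per strain, so they do not show whether the members of a pair changed alike. With sad-1 and sms-2 near 0, the ratios over these genes are set almost wholly by qde-1 and qde-2.

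Quelling and the small RNAs made after DNA damage need homologous recombination and the single-strand binding protein RPA, which works with QDE-1 and QDE-3. Of 11 recombination and checkpoint genes sought, 10 were found and tested, and 5 were called, 3 higher and 2 lower in the mutant, with a median of 0.13 log2 units against 0.0094 over all tested genes. Leaving out any 1 culture left 1 lower call, and there were 2 higher calls when any culture but control replicate 1 was left out. The spans of mus-25, rpa-3, uvs-6 and mus-21 overlap those of other genes in the NC12 assembly, so their values are uncertain. The share called is near the background of 47.8%. The counterparts of the yeast recombination genes RAD52 and RAD54 were called higher. The RAD52 counterpart mus-11 measured 14.3, 14.7 and 15.1 FPKM in the mutant cultures and 8.81, 10.03 and 11.3 FPKM in the control cultures (0.51 ± 0.087 log2 units, SE; adjusted p = 0.00273). The RAD54 counterpart mus-25 measured 8.51, 7.83 and 7.90 FPKM in the mutant cultures and 5.35, 5.97 and 5.97 FPKM in the control cultures (0.43 ± 0.071 log2 units, SE; adjusted p = 0.00244). Both were called in all 14 other settings, and neither overlapped between the strains.

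Among the RPA subunit genes rpa-3 fell, with 103, 90.7 and 107 FPKM in the mutant cultures and 119, 125 and 117 FPKM in the control cultures (-0.27 log2 units; adjusted p = 0.0193), and without control replicate 2 its adjusted p was 0.0739. The other subunits had estimates of the opposite sign without a call, 0.14 for rpa-1 (adjusted p = 0.0766) and 0.22 for rpa-2 (adjusted p = 0.0884). Under median centring rpa-1 gained a call (0.15 log2 units, adjusted p = 0.0489). The checkpoint kinase genes had calls of opposite sign: mus-9, the counterpart of ATR, was called higher (0.23 log2 units; adjusted p = 0.0402) and mus-21, the counterpart of ATM, lower (-0.25 log2 units; adjusted p = 0.044). Both were close to the threshold, and both calls were lost under the replicate block (adjusted p = 0.08 for mus-9 and 0.0644 for mus-21). The call of mus-9 was lost when any culture but control replicate 1 was left out (adjusted p up to 0.126) and on the TPM scale, with every culture rescaled to the same total (adjusted p = 0.0629). That of mus-21 was lost when any culture but control replicate 2 was left out (adjusted p up to 0.104), under median centring (adjusted p = 0.0549) and under quantile normalization (-0.050 log2 units, adjusted p = 0.617). The genes mus-23, uvs-6 and uvs-3 had no call, with estimates from -0.032 to 0.12. Under quantile normalization uvs-6 gained one (0.25 log2 units, adjusted p = 0.0272). In the end-joining pathway the ligase gene mus-53 fell (-0.34 ± 0.087 log2 units, SE; adjusted p = 0.016), but its adjusted p was 0.168 under quantile normalization and 0.0535 without mutant replicate 1. The Ku genes mus-51 (0.16 log2 units, adjusted p = 0.0641) and mus-52 had no call, and mus-51 gained one under median centring and quantile normalization (adjusted p = 0.042 and 0.00643).

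Of 7 other genes of repeat silencing sought, 4 were found and tested. None was called by limma, where 47.8% of all tested genes were called. None had an unadjusted p under 0.05 either, though cac-1 (0.054) and dim-2 (0.059) came close. The DNA methyltransferase gene dim-2 had a log2 fold change of -0.20 (adjusted p = 0.104), and the chromatin assembly factor genes cac-1, cac-2 and cac-3 had log2 fold changes of -0.17, -0.031 and -0.033. Without mutant replicate 1, cac-1 was called lower (-0.24, adjusted p = 0.0186).

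**Figure D4:**
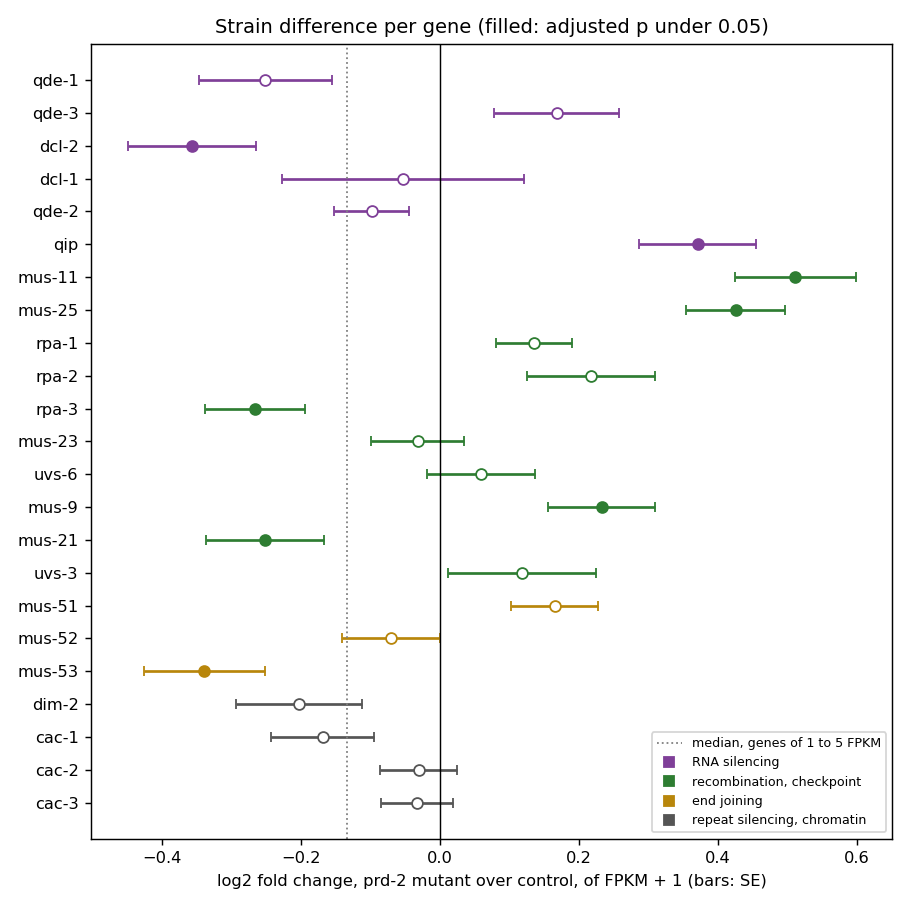
Log2 fold change of FPKM + 1, mutant over control, with its SE, for the 6 tested RNA silencing genes and for the tested genes of recombination, end joining and repeat silencing. Filled points passed an adjusted p of 0.05, and the dotted line marks the median of genes with a mean of 1 to 5 FPKM (-0.13). The called RNA silencing genes are dcl-2 at -0.36 and qip at 0.37, and mus-11 at 0.51 lies farthest from 0.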

How the data were processed

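Per the labels, RNA was selected with oligo(dT) beads, made into directional libraries and sequenced as 150 bp paired reads. The authors deposited 1 table of FPKM values, 1 column per culture. STAR and Cuffnorm are named in the submitters' processing notes, without versions or roles; build, annotation, scaling between libraries and use of strand are not given in the sources used here. Columns were tied to cultures by the short names in the labels.

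Values were taken as log2(FPKM + 1), and genes with a mean of at least 1 FPKM over 6 cultures (7797 of 9730) were compared with limma 3.58.1 in R 4.3.3 (eBayes with trend, Benjamini-Hochberg over all tested genes, threshold 0.05); the code was tested on simulated data. Fold changes on this scale understate the change of low genes. Exact permutation tests used scipy 1.17.1. Symbols came from a RefSeq table of assembly NC12 (9729 locus tags matched), and neighbours and overlaps from the gene starts and ends in it. Depth is unknown beyond the relative worth of 1 fragment, read from ratios of low values, of which 79.7% to 88.8% lay within 1% of ratios of whole numbers up to 4.

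Members and lists were chosen with earlier results of these data known. Named genes were the 8 members, the called genes of each pathway list up to 6, every gene of the shorter lists, the 3 most abundant markers of a list, and the 3 genes with profiles nearest to qde-2 and to dcl-2. Of these list symbols 8 matched no gene and were left out. Alternatives were a pseudocount of 0.1, no filter, a minimum mean of 5 FPKM, rescaling to equal totals, median centring, quantile normalization, no trend, the replicate number as a block, and each culture left out in turn. The result of 1 gene of the recombination list is not reported here, and the list's counts leave it out.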

Additional observations from a re-analysis of the deposited data

How the results depend on the processing

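The estimates of qip, dcl-2, qde-1, qde-2 and qde-3 kept their sign in every setting run, and dcl-1 did not. Quantile normalization moved most: dcl-2 became -0.067, qde-3 became 0.44 with a call, dcl-1 became 0.14, and the list then held 2 higher and 0 lower calls. The TPM scale (equal totals) gave qde-1 a call at -0.28, and leaving out the variance trend gave it one at -0.25, each making 2 lower calls. With a minimum mean of 5 FPKM only dcl-1, qde-2 and qip gave a value, with 1 call in all and 0 lower, since fewer genes were tested. Leaving out 1 culture moved dcl-1 between -0.15 and 0.13, and the calls stayed at 2. Of all tested genes, 48.7% were called under quantile normalization, 45.5% on the TPM scale and 47.3% without the variance trend. The share was 49.2% with the minimum mean of 5 FPKM, and 37.1% to 44.4% with 1 culture left out. Quantile normalization also raised the median of genes with a mean of 1 to 5 FPKM, as given above. The cause of the moves was not tested.

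With the replicate number as a block, the 2 calls were kept, dcl-2 at -0.36 (limma adjusted p = 0.0377) and qip at 0.37 (adjusted p = 0.0344), and 3363 genes were called in all, against 3725 without the block. Deviations of same-numbered cultures from their strain means had correlations across genes of -0.10, -0.18 and 0.068, and 0 of 6 cultures correlated best with its own number. The labels do not say what a shared number means. With 3 cultures per strain this check cannot exclude a shared batch. The 3 log2 ratios of paired enzymes kept their sign in all 9 settings. Among the recombination list, higher calls ranged from 2 to 4 and lower calls from 1 to 2. The block left 3 calls in all, and mus-9 and mus-21 lost theirs. Over the settings 37.1% to 49.2% of all tested genes were called, and 43.1% under the block. The fragments behind sad-1 and sms-2 are not given, and stepwise values were found for sms-2 and not for sad-1. Without a filter their differences were -0.044 (adjusted p = 0.272) and 0.0056 (adjusted p = 0.779) log2 units.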

Other observations

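The genes that lie next to the 8 RNA silencing genes in the NC12 assembly were examined for changes of their own. Of 13 tested neighbours 4 were called, against 47.8% of all tested genes. These were pdx-4, higher in the mutant, and 3 others, lower in the mutant. The gene NCU06765, next to dcl-2, measured 4.83, 5.39 and 5.13 FPKM in the mutant cultures and 6.53, 6.83 and 6.29 FPKM in the control cultures (log2 fold change -0.30, limma adjusted p = 0.0104), beside -0.36 for dcl-2 itself, and like dcl-2 it had no call under quantile normalization (adjusted p = 0.209). On the other side of dcl-2, NCU06767 had no call (log2 fold change -0.024, adjusted p = 0.746). NCU02179, next to sad-1, measured 8.80, 9.78 and 9.43 FPKM in the mutant cultures and 15.3, 14.7 and 17.5 FPKM in the control cultures (log2 fold change -0.70, limma adjusted p = 0.000414). NCU09435, next to sms-2, had a log2 fold change of -0.20 (limma adjusted p = 0.018), and without control replicate 2 its adjusted p was 0.0727. Beside qde-2 and qde-1 lie sah-2 and sah-3, and neither had a call (log2 fold changes 0.098 and 0.013).

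The tested genes whose centred log2(FPKM + 1) profiles over the 6 cultures came nearest to that of dcl-2 were NCU11323, NCU08776 and NCU01607, at root mean square distances of 0.018, 0.019 and 0.025 log2 units, where the median over all tested genes was 0.24. All 3 were lower in the mutant, with log2 fold changes of -0.37, -0.38 and -0.33. The profiles hold the strain difference, so this direction and size follow from how the genes were picked. Nearest to qde-2 were NCU09243, pex6 and NCU04455, at 0.0087, 0.015 and 0.015 log2 units, where the median was 0.17.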
